A study of Danio rerio with 14 samples.

Results

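The MZspg part of a zebrafish ChIP-seq series was examined by setting its H3K27ac peaks against its H3K4me3 peaks. The members were all peaks of the MZspg H3K27ac and MZspg H3K4me3 lists on chromosomes 1 to 25, which came to 145395 of the 681659 peaks in the 7 ChIP lists of the series. MZspg embryos are maternal-zygotic mutants for the m793 allele of spg, the gene of the transcription factor Pou5f3, and the study regards this allele as null. Their homozygous parents had been rescued to adulthood by injection of Pou5f3 mRNA. Both MZspg libraries were made from pooled whole embryos in the AB/TL background at dome (4.3 hpf), and this age was set by wild-type embryos laid at the same time. The groups set beside MZspg were the wild type (WT) and the maternal-zygotic sox19b mutant (MZsox19b, allele m1434), of the same background, age and tissue and with no further treatment. There was 1 library per mark in MZspg and in WT, whereas MZsox19b had 2 H3K27ac replicates and 1 H3K4me3 library. Per the methods, the WT and MZspg H3K27ac libraries each combined a pair of ChIP experiments, and every H3K4me3 library came from a single one.

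H3K4me3, the trimethylation of lysine 4 of histone H3, is deposited at active and poised promoters and is widely used to mark them. H3K27ac, the acetylation of lysine 27 of the same histone, is found at active promoters and at active enhancers, so that acetylated regions without H3K4me3 are commonly read as enhancer candidates. In zebrafish, the maternal factor Pou5f3 takes part in zygotic genome activation, during which both marks appear over the genome. Whole embryos hold many cell types, and a peak from such tissue cannot tell whether both marks sat on the same nucleosomes or in the same cells. No gene annotation of the assembly of the files (danRer11) was used here, so regions are given by position only.

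The MZspg H3K27ac list held 122893 peaks that covered 57.2 Mb, or 4.25% of the chromosome span reached by peaks. The H3K4me3 list held 22502 peaks over 15.1 Mb, or 1.13% of that span. Fold enrichment, the ratio of ChIP signal at the summit to the local background, ran from 1.18 to 62.9 for H3K27ac and from 1.18 to 98.8 for H3K4me3. Peaks were ranked by this value within each list, and the 10000 highest of a list are called strong. That limit fell at a fold of 6.36 for H3K27ac. For H3K4me3, the last peak inside the limit stood at 6.157 and the first outside at 6.155. A peak that shared at least 1 bp with a peak of the other mark is called overlapped, and the remainder lone. The lists carry no read counts. By the read totals in the study's reporting summary, which are not printed here, the MZspg H3K4me3 library was the shallowest of the ChIP libraries and the MZspg H3K27ac library was close in depth to both WT libraries. The part of this depth gap in the results was not tested. With 1 library per mark no test was possible, and the intervals given are Wilson 95% intervals that cover counting error only.

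Most H3K4me3 peaks of MZspg lay on acetylated chromatin, and at the upper end of the list all of them did. Of the 22502 H3K4me3 peaks, 19352, or 86.0% (85.5 to 86.4), were overlapped by an H3K27ac peak and 14.0% were lone. All of the 2500 highest H3K4me3 peaks were overlapped, and a count of 0 lone peaks, taken as up to 3 counts, allows a lone share of up to 0.12% among them. The first peak without H3K27ac had rank 4611. The classes of ranks given below start just after their first number, so that ranks 2500 to 5000 exclude rank 2500. The share was 99.88% in ranks 2500 to 5000 and 96.3% (95.7 to 96.8) in ranks 5000 to 10000. It fell to 76.3% in ranks 10000 to 20000, and remained at 76.4% (74.7 to 78.04) in the last class, whose folds were 2.52 or less. Peaks of that class had a median width of 271 bp, against 1547.5 bp for the 1000 highest.

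The acetylation found under H3K4me3 grew with the H3K4me3 rank. Over the 1000 highest H3K4me3 peaks, the highest overlapping H3K27ac peak had a median fold of 19.9, and 99.4% of these peaks had a strong H3K27ac partner. The median partner fold was 13.3 in ranks 1000 to 2500 and 9.04 in ranks 2500 to 5000, where 94.6% and 77.1% had a strong partner. In ranks 5000 to 10000 it was 5.56, with a strong partner at 37.7% of the peaks. Below rank 10000 the medians were 3.58 and 2.64, and 11.1% and 3.88% of the peaks had a strong partner. Weak H3K4me3 was therefore accompanied mostly by weak H3K27ac.

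**Figure D1:**
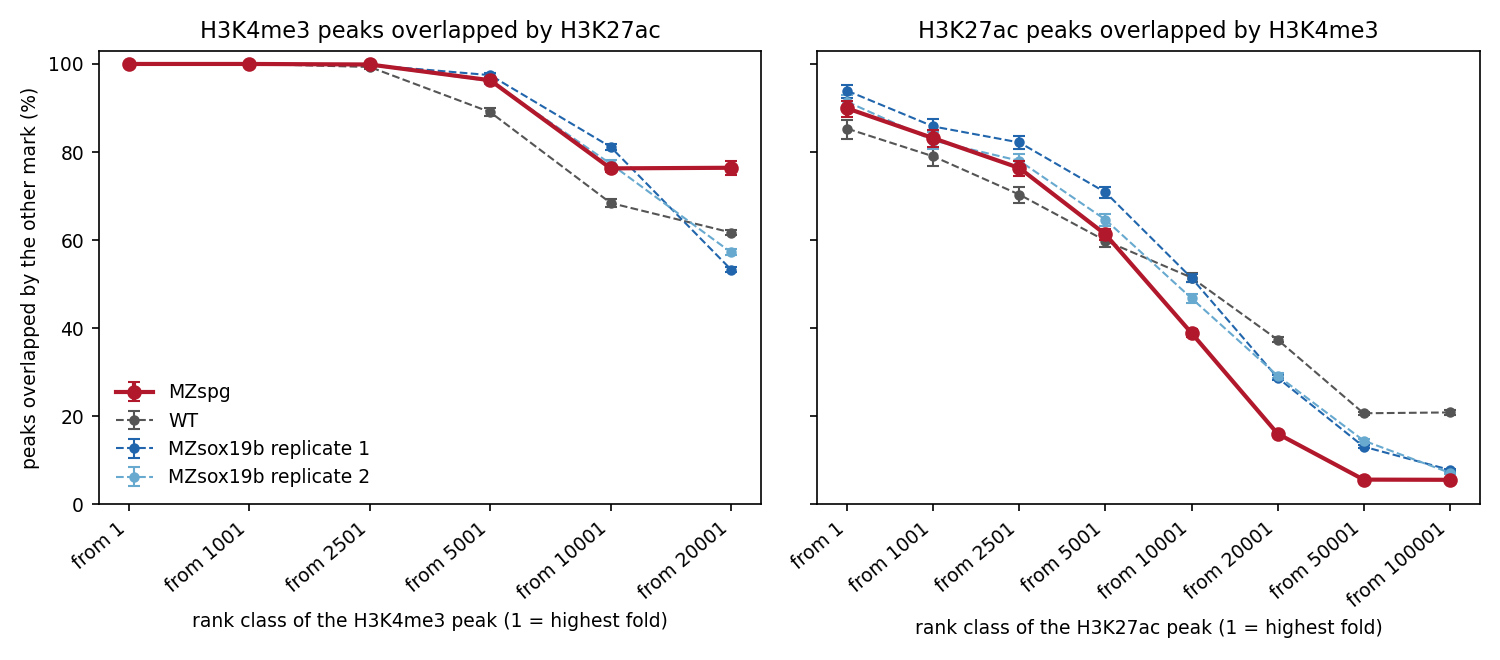
Share of H3K4me3 peaks overlapped by H3K27ac (left) and of H3K27ac peaks overlapped by H3K4me3 (right), in percent, by rank class of the peak, for MZspg (thick red line) and for WT and MZsox19b (dashed); bars are Wilson 95% intervals and ticks give the first rank of each class, the last class ending with each list. In MZspg the left curve stays at 100% to rank 2500 and ends at 76.4%, while the right curve falls from 89.9% to 5.53%.

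A small share of the H3K27ac list carried H3K4me3, and the share was highest at the top of the list. Of all H3K27ac peaks, 19868 of 122893, or 16.2% (16.0 to 16.4), were overlapped by H3K4me3, and 83.8% were lone. This contrast between the marks rested on lists of unequal length. With the H3K27ac list reduced to its 22502 highest peaks, 53.2% of the H3K4me3 and 51.8% of the H3K27ac peaks were overlapped. Of the 19868 overlapped H3K27ac peaks, 7119 were strong. Among the 1000 highest H3K27ac peaks, 89.9% (87.9 to 91.6) carried H3K4me3. The share was 83.1% in ranks 1000 to 2500, 76.4% in ranks 2500 to 5000 and 61.3% in ranks 5000 to 10000. It fell to 38.9%, 16.02%, 5.58% and 5.53% in the classes that follow. The H3K4me3 partner declined alongside, from a median fold of 48.2 over the 1000 highest H3K27ac peaks to 14.8 in ranks 5000 to 10000 and 2.47 in the last class. By length, both marks shared 11.7 Mb, which was 77.4% of the H3K4me3 bases and 20.5% of the H3K27ac bases.

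The overall shares moved with the lengths of the lists, and the genotypes differed in those. In WT, whose H3K4me3 list held 53634 peaks, 69.0% of the H3K4me3 peaks and 30.9% of the H3K27ac peaks were overlapped. With the WT lists reduced to the sizes of the MZspg lists, a setting chosen after seeing the data, the WT shares became 79.5% (79.0 to 80.02) and 16.1% (15.9 to 16.4). At those sizes MZsox19b replicates 1 and 2 gave 85.6% and 80.9% for H3K4me3, and 17.5% and 17.4% for H3K27ac. The MZspg shares of 86.0% and 16.2% thus stood above WT for H3K4me3 and at the WT value for H3K27ac. The H3K4me3 shares of the MZsox19b replicates lay as far apart as 85.6% and 80.9%, while their H3K27ac shares were close, at 17.5% and 17.4%. These replicates were the only repeated libraries. They share 1 H3K4me3 list, so they show the spread between H3K27ac libraries alone.

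Over the whole lists, peaks that carried both marks were the wider ones. Overlapped H3K4me3 peaks had a median width of 611 bp against 262 bp for lone ones, and overlapped H3K27ac peaks 597 bp against 237 bp. A wider peak meets the 1 bp rule more easily. Overlapped peaks also had higher median folds, 6.35 against 2.93 for H3K4me3 and 4.67 against 2.58 for H3K27ac. The part of the rule and of fold in these widths was not tested. The pairing was mostly simple, since 94.8% of the overlapped H3K4me3 peaks met a single H3K27ac peak and 98.1% of the overlapped H3K27ac peaks met a single H3K4me3 peak. Each overlapped H3K4me3 peak was paired with its highest H3K27ac partner, and in 6227 of the 19352 pairs both peaks were strong.

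In MZspg the 2 marks reached about equally far. Among the strong pairs the H3K27ac peak was the wider in 51.8%, with medians of 1165 bp for H3K27ac and 1111 bp for H3K4me3 and a median ratio of 1.02. H3K27ac extended beyond both edges of H3K4me3 in 25.3% of these pairs, and H3K4me3 beyond both edges of H3K27ac in 29.7%. In WT, H3K27ac was the wider in 16.6% of 5448 strong pairs, the medians were 954 bp and 1344 bp, and H3K4me3 extended beyond both edges in 69.02%. MZsox19b lay between, with H3K27ac the wider in 35.1% of strong pairs in replicate 1 and 39.7% in replicate 2. Over all pairs the genotypes were closer, with H3K27ac the wider in 51.6% in MZspg, 40.6% in WT and 45.4% and 48.1% in MZsox19b. The highest H3K4me3 fold was 98.8 in MZspg, 291.2 in WT and 309.8 in MZsox19b. The part of enrichment and depth in the width of called peaks was not tested.

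The summits of paired peaks lay close together. Pairs were formed by overlap, so the widths of the peaks bound this distance. Their medians were 611 bp for H3K4me3 and 640.5 bp for H3K27ac. The distance that overlap alone would give was not computed. The median distance between the summits of a pair was 48 bp, with quartiles of 18 and 123 bp. It was within 200 bp in 83.1% of the pairs, within 500 bp in 93.9% and within 1000 bp in 97.6%, and 455 pairs lay farther apart. In bp the median distance hardly moved with H3K4me3 rank. It was 48 bp for the 1000 highest, 40 bp in ranks 2500 to 5000, 55 bp in ranks 10000 to 20000 and 39 bp beyond rank 20000. The median width of the overlapped H3K4me3 peaks fell meanwhile from 1547.5 bp in the 1000 highest to 291 bp beyond rank 20000. The distances were therefore not alike relative to peak width. The WT median was 40 bp, and the MZsox19b medians were 49 and 61 bp. In genome coordinates the offsets were divided evenly over both sides, as the H3K27ac summit lay 0 to 50 bp to the left in 25.3% of the pairs and 0 to 50 bp to the right in 25.8%. Left and right follow the chromosome and not the direction of a gene, so an offset relative to genes could not be seen.

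**Figure D2:**
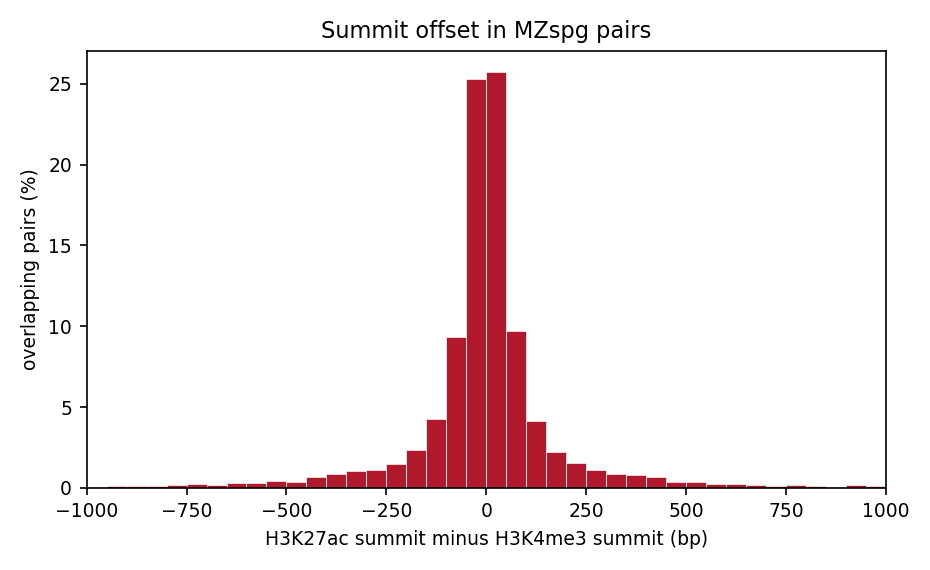
Distance in bp from the H3K4me3 summit to the summit of the overlapping H3K27ac peak (x axis, in 50 bp bins) against the percent of the 19352 MZspg pairs in each bin (y axis). The 2 central bins hold 25.3% and 25.8% of the pairs; the 455 pairs beyond 1000 bp are not drawn.

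Enrichment of the marks was ranked alike over the pairs. Spearman's rho between the folds was 0.72 over the 19352 pairs, 0.69 with −log10 q in place of fold and 0.64 with width. These are descriptions across sites that share libraries, depth and base composition. By the study's reporting summary, pooled inputs served as the background of peak calling, and the part of this background in rho was not tested. Over the 6227 strong pairs rho was 0.55. Within single classes of H3K4me3 rank it was lower, at 0.31 over the 1000 highest pairs, 0.23 in ranks 1000 to 2500, 0.25, 0.26 and 0.25 in the next 3 classes and 0.39 beyond rank 20000. Widths of the 2 marks were ranked more alike than folds among high peaks, with a rho of 0.68 over the 1000 highest. In WT, rho of the folds was 0.60 over 37034 pairs, and in MZsox19b it was 0.52 and 0.42, from lists of other lengths. Over strong pairs, where the rank limits were equal, it was 0.57 in WT and 0.57 and 0.52 in MZsox19b, close to the 0.55 of MZspg.

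**Figure D3:**
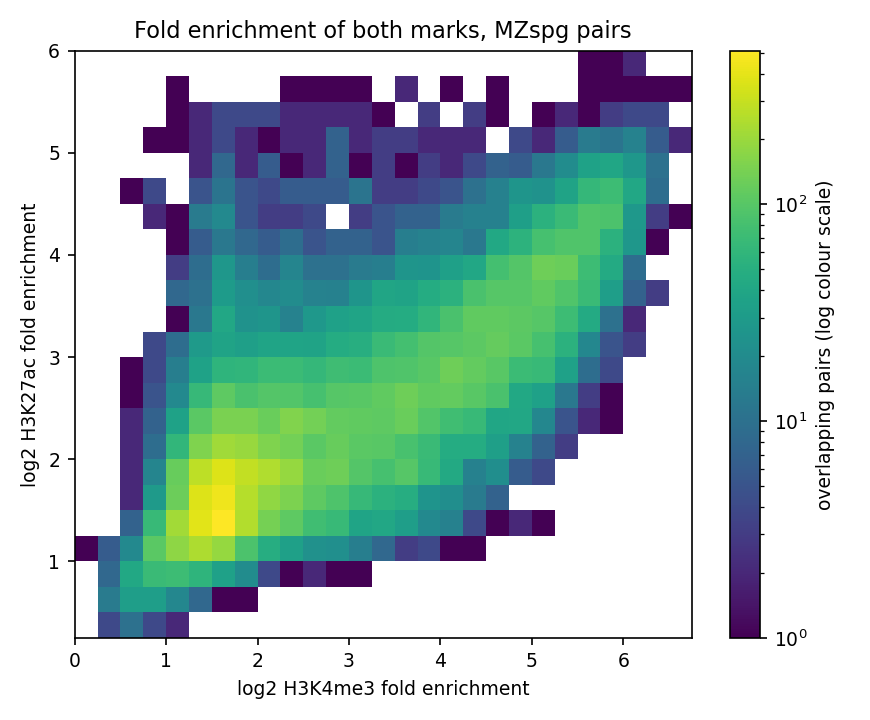
Log2 fold enrichment of H3K4me3 (x axis) and of its highest overlapping H3K27ac peak (y axis) in MZspg; colour gives the number of pairs per cell on a log scale. Both rise together over the 19352 pairs (rho 0.72), and a scatter of pairs with high H3K27ac and low H3K4me3 fills the upper left.

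In MZspg, pairs of a peak among the 2500 highest and a partner that was not strong were few. Among the 2500 highest H3K4me3 peaks, 87 had no strong H3K27ac partner. Their H3K4me3 fold had a median of 35.3 and their H3K27ac partner one of 5.56, with a range of 2.78 to 6.36. These peaks were narrower than the other 2413, with a median of 1022 bp against 1371 bp. In the opposite direction, 99 of the 2500 highest H3K27ac peaks were overlapped by H3K4me3 peaks that were not strong, with a median fold of 3.56 and a range of 1.68 to 6.15. They were wider than the other 2047 overlapped peaks, at 1823 bp against 1546 bp. A further 354 of those 2500 H3K27ac peaks had no H3K4me3 peak at all. In WT the corresponding numbers of such unequal pairs were 111 and 165. In MZsox19b they were 83 and 330 with replicate 1, and 154 and 467 with replicate 2.

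The 3 pairs with the smallest sum of ranks carried both marks in every library. At chr20:42291576-42292732 the H3K4me3 peak (rank 3) had a fold of 94.7 in MZspg, 92.1 in WT and 210.7 in MZsox19b. The H3K27ac peak around it (rank 10) measured 3246 bp, and its fold was 48.0 in MZspg, 20.3 in WT and 42.3 and 38.9 in the MZsox19b replicates. Their summits were 6 bp apart. The lists differed in scale, since rank 10000 stood at 5.53 in WT and 6.36 in MZspg for H3K27ac, and at 11.9 and 6.16 for H3K4me3, so folds are not compared across libraries.

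At chr2:43604240-43605933 the H3K4me3 peak (rank 6) had a fold of 89.6 in MZspg, 152.0 in WT and 219.3 in MZsox19b. Its H3K27ac partner (rank 12) had a fold of 46.4 in MZspg, 34.6 in WT and 37.7 and 28.1 in MZsox19b, with summits 47 bp apart. The third pair, at chr10:44984266-44986317, had an H3K4me3 fold of 89.2 (rank 7) and an H3K27ac fold of 44.2 (rank 22), 164 bp apart. Its H3K27ac fold was 30.6 in WT and 46.2 and 32.6 in MZsox19b. Among all pairs, 489 had both peaks among the 1000 highest of their lists.

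Strong H3K4me3 without acetylation was rare when the longer list, with its 122893 H3K27ac peaks, was searched. Of the 10000 strong H3K4me3 peaks, 188 were lone, or 1.88% (1.63 to 2.17), against the 14.0% of the whole list. Only 3 of them stood among the 5000 highest. Their fold had a median of 8.21 and a maximum of 19.2, and their widths ran from 235 to 1347 bp with a median of 537 bp. Overlapped peaks of ranks 5000 to 10000 had a median width of 749 bp and a median fold of 10.4. The nearest H3K27ac peak was a median of 6922.5 bp away (quartiles 1934 and 19382 bp), within 1 kb for 27 of the 188 and over 20 kb away for 46. WT had 564 strong lone H3K4me3 peaks and MZsox19b 133 and 200 by H3K27ac replicate.

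Nearly all of these 188 regions carried H3K4me3 in the other genotypes, and few of them carried WT H3K27ac. A WT H3K4me3 peak overlapped 96.3% (92.5 to 98.2) of them, against 98.3% of all strong H3K4me3 peaks. A WT H3K27ac peak overlapped 38, or 20.2% (15.1 to 26.5), against 89.6% of all strong H3K4me3 peaks and 83.7% (82.7 to 84.8) of the overlapped ones in ranks 5000 to 10000. In MZsox19b, whose H3K27ac lists were longer, 53.2% and 44.1% of the 188 had H3K27ac in replicates 1 and 2, where the overlapped peaks of ranks 5000 to 10000 reached 91.0% and 89.7%. The WT and MZsox19b libraries were not used to choose these regions. The intervals cover counting error only, and no test between the groups of peaks was possible. The lone peaks had a median rank of 8523, a median width of 537 bp and a median fold of 8.21. The overlapped peaks of ranks 5000 to 10000 had medians of 7449, 749 bp and 10.4. The part of rank, width and fold in the difference of the H3K27ac shares was not tested.

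The 5 highest lone H3K4me3 peaks show the range. The peak at chr14:50928592-50929490 (rank 4611, 899 bp) had a fold of 19.2 in MZspg, 30.05 in WT and 79.8 in MZsox19b. No WT H3K27ac peak overlapped it, and MZsox19b H3K27ac had folds of 2.90 and 3.56. A strong MZspg H3K27ac peak of fold 15.3 nevertheless lay 1544 bp away. The peak at chr3:9443166-9443704 had a fold of 18.3, and the nearest H3K27ac peak, of fold 3.18, lay 872 bp away. The chr3 region was weakly acetylated in WT, with a fold of 2.44, and had H3K27ac folds of 5.43 and 3.75 in the MZsox19b replicates.

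The peaks at chr19:5604077-5604866 and chr2:9061807-9062390 had no H3K27ac in any genotype. Their H3K4me3 folds were 17.7 and 17.5 in MZspg, 29.02 and 25.5 in WT, and 57.9 and 91.6 in MZsox19b. In MZspg the nearest H3K27ac peaks lay 26889 and 10732 bp away. The peak at chr14:8813857-8814683 had a fold of 16.6 in MZspg and was acetylated in WT (fold 3.56) and in both MZsox19b replicates (6.83 and 5.34), with the nearest MZspg H3K27ac 1642 bp away.

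Strong H3K27ac without H3K4me3 was common, but the H3K4me3 list searched held 22502 peaks, against 122893 for H3K27ac. With strong peaks alone, the lists were equal in length. A strong partner was then present at 86.4% of the 1000 highest H3K27ac and 99.4% of the 1000 highest H3K4me3 peaks. The shares were 78.9% and 94.6% in ranks 1000 to 2500, and 68.1% and 77.1% in ranks 2500 to 5000. In ranks 5000 to 10000 the order turned, to 48.7% and 37.7%. Of the 10000 strong H3K27ac peaks 2881 were lone, or 28.8% (27.9 to 29.7), against 83.8% of the whole list. The first had rank 13, and 101 of the 1000 highest and 945 of the 5000 highest were lone. WT had 3212 such peaks, and MZsox19b 2178 and 2666. Lone strong peaks had a median fold of 8.34 and overlapped strong peaks one of 10.7.

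At like fold, acetylated regions without H3K4me3 were the wider ones in the upper part of the list. Among the 1000 highest H3K27ac peaks the median width was 3055 bp for the 101 lone and 1818 bp for the 899 overlapped peaks, while their median folds were 23.2 and 24.3. In ranks 1000 to 2500 the widths were 2885 and 1401 bp, in ranks 2500 to 5000 they were 2215 and 1140 bp, and in ranks 5000 to 10000 they were 1318.5 and 888 bp. The difference narrowed to 742 against 632 bp in ranks 10000 to 20000, and its direction turned in ranks 20000 to 50000, with 376 bp for lone and 411 bp for overlapped peaks. In WT the 1000 highest gave 2752 bp for lone and 1536 bp for overlapped peaks. In MZsox19b the direction was the opposite in that class, with 945 against 2482 bp in replicate 1 and 1221.5 against 2553.5 bp in replicate 2, and also in ranks 1000 to 2500, with 1577 against 1934 bp and 1253 against 2140 bp. From rank 2500 to 10000 the lone peaks were the wider there too.

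**Figure D4:**
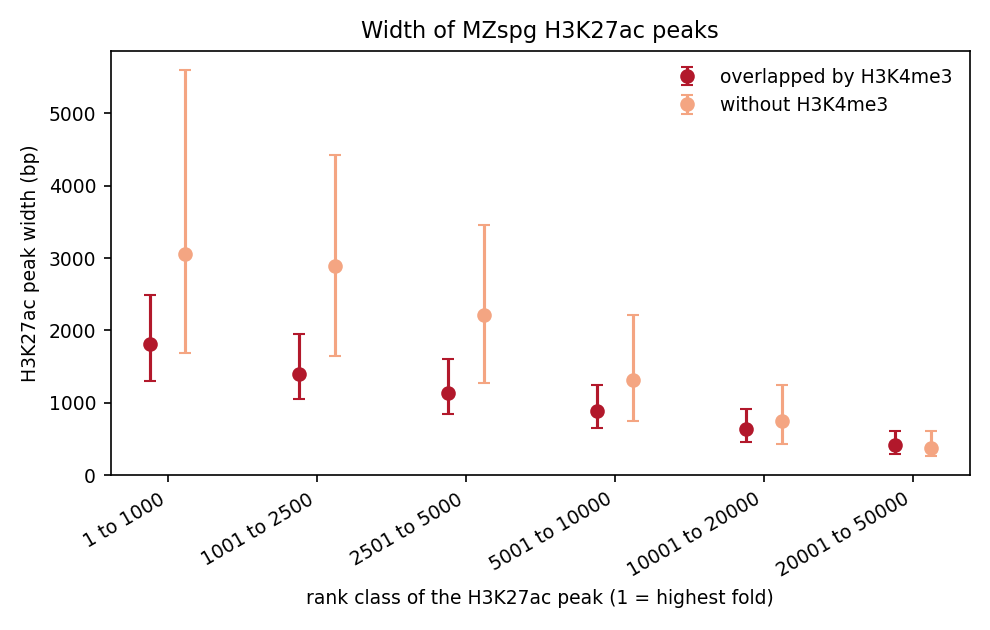
Width in bp of MZspg H3K27ac peaks (y axis) by rank class (x axis), for peaks overlapped by H3K4me3 (dark red) and peaks without it (light); points are medians and bars reach from the lower to the upper quartile. Lone peaks are wider in the 5 upper classes, from 3055 against 1818 bp to 742 against 632 bp, and slightly narrower in the last.

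Read by width, the share of strong H3K27ac peaks that were lone had its lowest value at intermediate widths. It was 35.4% (32.1 to 38.9) for the 748 strong peaks under 500 bp, 19.9% from 500 to 1000 bp and 22.2% from 1000 to 2000 bp. From 2000 to 5000 bp it rose to 48.97% (46.7 to 51.2), and of the 332 strong peaks of 5000 bp or more, 186, or 56.02% (50.6 to 61.3), had no H3K4me3. In WT 39.5% of the 177 strong peaks of 5000 bp or more were lone, and in MZsox19b 32.3% and 33.03% of 774 and 990. From 2000 to 5000 bp the WT share was above that of MZspg, at 55.3% of 1540 peaks, and the MZsox19b shares were 25.5% and 27.6%. In WT it was also the higher from 500 to 1000 bp (23.1%) and from 1000 to 2000 bp (32.4%), and the lower under 500 bp (28.02%).

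Most lone strong H3K27ac regions were acetylated in the other genotypes too, and H3K4me3 was mostly missing there as well. A WT H3K27ac peak overlapped 88.8% (87.6 to 89.9) of the 2881, against 94.2% of all strong H3K27ac peaks. A WT H3K4me3 peak overlapped 403, or 13.99% (12.8 to 15.3), against 72.2% of all strong H3K27ac peaks and 95.7% of the overlapped ones, although the WT H3K4me3 list was the longer. In MZsox19b 25.5% carried H3K4me3, and 86.8% and 89.1% carried H3K27ac in the replicates. The WT H3K4me3 share depended on position. It was 20.3% (17.7 to 23.1) for the 838 lone strong peaks within 5 kb of an MZspg H3K4me3 peak and 10.1% (8.45 to 11.9) for the 1143 over 20 kb away.

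Lone H3K27ac peaks of MZspg lay a median of 14468 bp from the nearest H3K4me3 peak, with quartiles of 4428 and 37406 bp. Within 1 kb lay 8.19%, within 5 kb 27.03%, within 20 kb 58.6% and within 100 kb 93.2%. The lone strong peaks had a similar median of 12890 bp. By gap, 252 of the 2881 lay within 1 kb, 586 between 1 and 5 kb, 900 between 5 and 20 kb, 960 between 20 and 100 kb and 183 beyond. Their median fold was 8.24 in the nearest group and 8.24 in the farthest. Strong peaks all had folds of 6.36 or more, so these medians cannot show whether enrichment changed with distance. The median width of the lone strong peaks was 1185.5 bp within 1 kb, 1690 bp between 20 and 100 kb and 1475 bp beyond 100 kb. A wide peak close to H3K4me3 tends to overlap it and is then not lone. The low width in the nearest group may thus follow from the definition, which was not tested.

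The highest lone peaks were nearer to H3K4me3 than the bulk. The 101 lone peaks of ranks 1 to 1000 had a median gap of 6562 bp, and the 253 of ranks 1000 to 2500 one of 9113 bp. In every class beyond rank 2500 the median was between 13431 and 15360 bp. In WT the median over all lone peaks was 7212 bp. With the WT lists reduced to the MZspg sizes, a setting chosen after seeing the data, it was 14875 bp, close to the 14468 bp of MZspg. A shorter H3K4me3 list lengthens the gaps in itself, so the parts of list length, depth and genotype in the difference cannot be told apart.

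**Figure D5:**
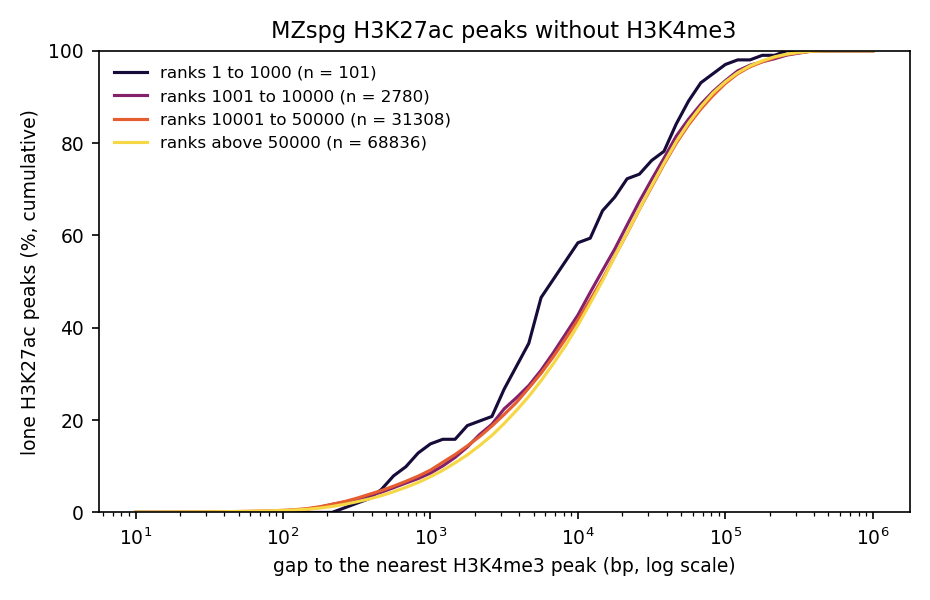
Cumulative percent of MZspg H3K27ac peaks without H3K4me3 (y axis) against the gap in bp to the nearest H3K4me3 peak (x axis, log scale), in 4 classes of H3K27ac rank. The curve of the 101 highest lone peaks lies to the left (median 6562 bp), and the curves of the other classes run together.

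Seen from H3K4me3, most peaks had lone acetylation nearby, and the share that the density of the 103025 lone peaks would give was not computed. At least 1 lone H3K27ac peak lay within 5 kb of 66.1% (65.4 to 66.7) of the H3K4me3 peaks. The share was 76.3% (73.6 to 78.8) for the 1000 highest, 60.4% (59.04 to 61.7) in ranks 5000 to 10000 and 73.6% beyond rank 20000. At least 3 such peaks lay within 5 kb of 291 of the 1000 highest, against 5958 of all 22502 H3K4me3 peaks and 902 of the 2502 beyond rank 20000.

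The 5 highest H3K27ac peaks with no H3K4me3 within 5 kb had little or no H3K4me3 in any genotype. At chr11:17758887-17761561 (rank 13, 2675 bp) the H3K27ac fold was 46.1 in MZspg, 18.9 in WT and 22.8 and 20.5 in MZsox19b. No WT H3K4me3 peak overlapped it, and the MZsox19b H3K4me3 fold was 2.58. The nearest MZspg H3K4me3 peak was strong, with a fold of 30.4, and lay 20501 bp away. At chr12:39243033-39244392 (rank 15) the H3K27ac fold was 45.8 in MZspg, 19.4 in WT and 39.5 and 31.6 in MZsox19b, and the nearest H3K4me3, of fold 3.38, lay 5548 bp away. These regions were chosen for their high MZspg fold, which favours MZspg over the libraries that took no part in the choice.

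At chr2:32102624-32105539 (rank 16) the H3K27ac fold was 45.8 in MZspg, 23.6 in WT and 51.8 and 61.1 in MZsox19b. Within 50 kb on either side of this peak MZspg had 28 H3K27ac peaks but 1 H3K4me3 peak. The region at chr10:45008156-45009815 (rank 62) had an H3K27ac fold of 35.1 in MZspg, 20.5 in WT and 27.2 and 30.8 in MZsox19b. With 50 kb on either side it held 10 strong H3K27ac and 5 strong H3K4me3 peaks, among them the third of the highest pairs. The region at chr19:38506908-38516211 (rank 63) was a domain of 9304 bp, with an H3K27ac fold of 35.1 in MZspg, 20.3 in WT and 14.9 and 15.7 in MZsox19b, and it lay 35238 bp from H3K4me3. None of the 5 had a WT H3K4me3 peak.

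Lone strong H3K27ac peaks also occurred in runs. When those within 10 kb of each other were joined, 173 stretches held 3 or more of them and 727 peaks in all, while 1412 stood alone. The run with the most, 25 lone strong peaks over 45205 bp, lay at chr4:30951510-30996714, had a highest fold of 24.3 and held 9 H3K4me3 peaks between its acetylated ones. WT had 16 H3K27ac peaks there with folds up to 5.97 and no H3K4me3, and MZsox19b had 32 and 33 with folds up to 14.0 and 14.4. The run at chr11:18705559-18752980 held 12 peaks that covered 32052 bp, with folds up to 20.5 in MZspg, 20.2 in WT and 26.8 and 23.2 in MZsox19b. Runs were built from peaks without MZspg H3K4me3, and an MZspg H3K4me3 peak lay 281 bp from this one. Across it WT had 2 H3K4me3 peaks with folds up to 4.02, and MZsox19b had 5 with folds up to 78.03.

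In MZspg the 3 widest H3K27ac peaks were far longer than the 3 widest H3K4me3 peaks. This order was not general. In WT the widest H3K4me3 peak measured 30747 bp and the widest H3K27ac peak 25465 bp. In MZsox19b the widest H3K4me3 peak measured 15792 bp, and the widest H3K27ac peaks of the replicates 27645 and 35442 bp. The part of depth in these widths was not tested. The widest MZspg H3K27ac peak, at chr4:69461289-69487325, measured 26037 bp at a fold of 19.8. It overlapped 19 separate H3K4me3 peaks, of which the highest had a fold of 4.02. Across it WT had 7 H3K27ac peaks with folds up to 2.72, and MZsox19b 26 and 19 with folds up to 5.43 and 8.40. Neither WT nor MZsox19b had an H3K4me3 peak there. The next, at chr5:47989770-48015150, measured 25381 bp at a fold of 28.6 (rank 205) and had no H3K4me3, the nearest lying 13365 bp away with a fold of 35.3. WT had 13 H3K27ac peaks with folds up to 5.53 across that interval, and MZsox19b 11 and 10 with folds up to 7.12 and 6.42. The third, at chr25:36321477-36340621, measured 19145 bp at a fold of 42.5 (rank 24) and overlapped 8 H3K4me3 peaks with folds up to 15.6. WT H3K4me3 had 12 peaks there with folds up to 31.6, and MZsox19b 6 with folds up to 100.5.

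By contrast, the widest MZspg H3K4me3 peak measured 5079 bp. It lay at chr7:22788411-22793489 with a fold of 51.0 and lay, but for its right edge, inside a single H3K27ac peak of 9452 bp and fold 26.02. The next, at chr10:41983365-41988276, measured 4912 bp at a fold of 23.6, with an H3K27ac partner of 4453 bp and fold 20.7. The third, at chr4:68687849-68692505, measured 4657 bp at a fold of only 4.39, and its H3K27ac partner of 4686 bp had a fold of 6.97. In that interval neither WT nor MZsox19b had H3K4me3, and only WT had H3K27ac, with a fold of 1.42.

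The overlap of the marks varied moderately across chromosomes. The share of H3K4me3 peaks overlapped by H3K27ac ran from 81.7% on chromosome 1 to 89.3% on chromosome 15, and that of H3K27ac peaks overlapped by H3K4me3 from 13.4% on chromosome 9 to 19.99% on chromosome 22. Chromosome 4 had the most peaks of both marks, with 2522 H3K4me3 and 12191 H3K27ac peaks where the medians over chromosomes were 763 and 4477. It held 5.68% of the 5000 highest H3K4me3 peaks but 14.4% of those in ranks 10000 to 20000, and it had the shortest median gap of lone H3K27ac, 7337.5 bp, where chromosome 9 had the longest, 21941.5 bp. The lone share of strong H3K27ac peaks ran from 21.1% on chromosome 22 to 37.3% on chromosome 9. Without chromosome 4 the shares were 86.03% and 16.01%, and the gap was 15518 bp.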

How the data were processed

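ChIP-seq peak lists of H3K27ac and H3K4me3 from MZspg embryos were analysed, with those of WT and MZsox19b beside them. Per the labels and methods, the authors mapped reads to danRer11 with Bowtie2 2.3.2.2 and called peaks per library with MACS2, and bedtools is listed in the submitters' processing notes. All ChIP libraries had the same target depth per the labels, and by the study's reporting summary the MZspg H3K4me3 library had the fewest reads of them. The files carry no read numbers, and no value was scaled by depth. The deposited score column holds the −log10 q value times a constant and was not used further. The deposited fold enrichment is a ratio, ChIP signal over the local background. How far a peak exceeded this background is expressed by the authors as −log10 p and −log10 q, of which the latter was at least 1.30 throughout the MZspg H3K27ac list. The deposited summit offset was added to the peak start. All these values come from the called peaks, so their number and width depend on depth, on the efficiency of the ChIP and on the threshold.

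Peaks on chromosomes 1 to 25 were kept and ranked within each list by fold enrichment, with ties broken by −log10 q. Overlap needed 1 bp. Wilson 95% intervals were computed for shares. They reflect counting alone, since peaks that lie close together are not independent. With 1 library per mark in MZspg no test was run and no p-value is given. Files were read with pandas 2.3.3 and numpy 2.4.6, intervals and correlations came from scipy 1.17.1, and the overlap functions were tested on simulated data. The members, lists and rules were chosen with earlier results of these data known. Regions were named by rule: the 3 pairs with the smallest sum of ranks, the 5 highest lone H3K4me3 peaks, the 5 highest H3K27ac peaks with no H3K4me3 within 5 kb and the 3 widest peaks of each mark. Runs of lone peaks were named after their values were seen. The planned summaries over gene start sites, over gene lists and over motifs were left out, because the reference tables used here describe another assembly.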

Additional observations from a re-analysis of the deposited data

Results flagged for a closer look

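The comparisons were made on chromosomes 1 to 25, and the MZspg lists also held peaks on other sequences of the assembly, which no comparison of the report used. They entered only the alternative with all sequences. For H3K27ac these were 17837 peaks on 1469 sequences, of which 20.9% (20.3 to 21.5) were overlapped by H3K4me3. For H3K4me3 they were 4429 peaks on 1150 sequences, of which 80.5% (79.3 to 81.6) were overlapped by H3K27ac. Both were drawn out because they are signal outside the main measurement.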

How the results depend on the processing

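The main shares were 86.0% of H3K4me3 and 16.2% of H3K27ac peaks overlapped by the other mark, and most settings moved them by more than counting error. The H3K4me3 share stayed within it at q of 0.01 or less (86.2%), with peaks within 1000 bp merged (86.4%) and without chromosome 4 (86.03%). With at least 50% of a peak covered they were 78.5% and 13.7%, with the summit inside the other peak 82.2% and 14.9%, and with the other mark within 1000 bp 90.1% and 23.03%. With the H3K27ac list at the size of the H3K4me3 list they were 53.2% and 51.8%, and with all sequences 85.1% and 16.8%. For H3K27ac the share was 16.8% at q of 0.01 or less and 21.6% with peaks within 1000 bp merged.

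Median widths (523 bp for H3K4me3, 263 bp for H3K27ac) became 623 and 310 bp after merging and 540 and 278 bp at the stricter q. Without chromosome 4, a setting added after seeing the data, the H3K4me3 width was 547.5 bp, rho was 0.73 and the gap of lone H3K27ac 15518 bp. The summit distance of 48 bp became 43 bp over strong pairs. The rank correlation of the folds (0.72) became 0.69 by −log10 q, 0.64 by width and 0.55 over strong pairs. The 188 strong lone H3K4me3 peaks became 3 among the 5000 and 0 among the 2500 highest, and the 2881 strong lone H3K27ac peaks 945 and 354. Under the other settings these counts stayed between 126 and 243 and between 2629 and 3028. The gap of 14468 bp became 15116 bp between summits, 12890 bp for strong lone peaks, 33085 bp to strong H3K4me3 peaks and 14750 bp at the stricter q. The cause of these shifts was not tested. The start-site result was not run, as no annotation of the assembly was used. No paired analysis was possible because MZspg has 1 library per mark and no result comes from a test. The lower depth of the MZspg H3K4me3 library may limit its list, which was not tested.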
